A study of Mus musculus with 21 samples.

Results

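The genes of the translation initiation factors (eIF) and elongation factors (eEF) were followed in the hearts of mice exposed to nanoplastics. Every gene of the count table whose symbol starts with Eif or Eef and a digit was taken, pseudogene symbols left out, which gave 67 of 20960 genes, 54 for initiation and 13 for elongation. The exposed group was 4 adult male wild-type mice treated with polystyrene nanoplastics for 8 weeks, and the control group was 3 such mice given distilled water. Hearts were cut into 3 sections, labelled atrial, right ventricle and left ventricle, and a bulk RNA library was made from each, 21 in all. The labels used here do not give a strain, a particle size or a dose, and nothing in them says whether the mice of a group shared a cage or litter.

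Protein synthesis starts when initiation factors bring the initiator tRNA, the small ribosomal subunit and the capped mRNA together, and elongation factors then feed in aminoacyl-tRNAs and move the ribosome along the message. Initiation is the step that cells regulate most, through phosphorylation of eIF2, which slows delivery of the initiator tRNA, and through 4E-binding proteins, which mTORC1 signalling keeps off the cap-binding factor eIF4E. Many mRNAs of elongation factors, of some eIF3 subunits and of ribosomal proteins begin with a 5′ terminal oligopyrimidine tract (TOP), which places their translation under mTORC1. Heart muscle is a tissue in which growth under load depends on this machinery, and adult muscle is known for making eEF1A2, a second form of eEF1A that most other tissues lack.

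Libraries other than the right ventricle of nanoplastics mouse 2 held 413436 to 2439314 counts. That library held 4662 counts, with 20 of the 67 genes detected, and was left out of every value below unless stated. Cardiac muscle markers, 10 genes, summed to 53953 to 80314 CPM in these libraries, where CPM is the count scaled to a common library size, here by library totals for the markers and otherwise with the TMM scaling of edgeR unless stated. The section label did not go with atrial muscle markers, 8 genes with Bmp10, Nppa and Myl7 among them. Bmp10 had no count in any atrial library, and Gja5, also in the list, had none in some. The summed level of the 8 genes was 64.2 to 63947 CPM in the nanoplastics atrial libraries and 249 to 675 CPM in the control ones, against 77.1 to 2273 CPM in the left ventricle. The atria of nanoplastics mouse 1 held the highest value and stood apart for several factor genes. The median annotated transcript length per count was 1318 to 1599 nt in the nanoplastics libraries and 1633 to 1796 nt in the control libraries, so short transcripts took a larger share of the counts in exposed hearts. The part of this length difference in the results was not tested beyond a fit with the length trend removed. In bulk RNA, fewer cells of a type and less RNA per cell cannot be told apart.

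The levels set the scene for the comparisons. CPM per kilobase of the longest annotated transcript, averaged over the 7 summed hearts, spanned from 807 for Eif1 to 0.116 for Eif5a2, among the 65 genes with an annotated length. RNA was barcoded at the 5′ end, and whether counts rise with transcript length was not tested, so the order holds on this scale only. The long Eif4g2, for example, had 313 CPM but 39.1 CPM per kb. Eif1, which guards start codon choice on the scanning ribosome, was far above all others at 807 ± 99.7 CPM per kb (SD, n = 7 mice). Eef1a1, which delivers aminoacyl-tRNAs to the ribosome, followed at 262 ± 71.7 CPM per kb. Neighbours below it lay within each other's spread: Eif3m at 155 ± 26.9, Eif3h at 141 ± 15.9, Eef1akmt1 at 126 ± 19.9, Eif5a at 125 ± 17.9, Eif3k at 118 ± 21.4 and Eef1b2 at 113 ± 29.6 CPM per kb. Eef2, which moves the ribosome by a codon, stood at 38.3 ± 9.53 CPM per kb.

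**Figure D1:**
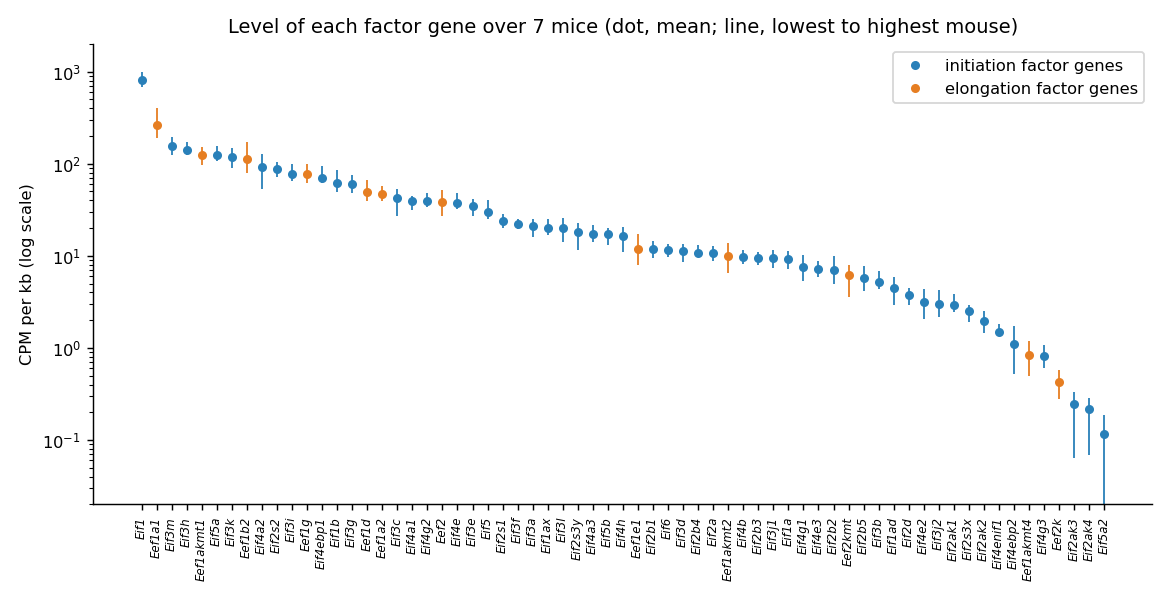
Level of each factor gene in CPM per kilobase on a log axis, ordered from high to low over the 7 summed hearts. Dots are means and lines run from the lowest to the highest mouse, with initiation genes in blue and elongation genes in orange. Eif1 at 807 CPM per kb leads, and the stress kinase genes Eif2ak3 and Eif2ak4 stand next to the low end. The line of Eif5a2 reaches 0 in 1 mouse and runs off the axis.

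The kinase genes that regulate the factors were near the low end, and the 4E-binding proteins lay far apart. Eif4ebp1, which encodes such a protein, stood at 70.7 ± 11.0 CPM per kb and its paralog Eif4ebp2 at 1.11 ± 0.464 CPM per kb. The kinases that phosphorylate eIF2 stood at 2.95 ± 0.533 (Eif2ak1, heme-regulated), 1.96 ± 0.425 (Eif2ak2, the double-stranded RNA kinase), 0.245 ± 0.0977 (Eif2ak3, the endoplasmic reticulum stress kinase) and 0.219 ± 0.0829 CPM per kb (Eif2ak4, the amino acid sensor). Eef2k, the kinase that inhibits eEF2, stood at 0.430 ± 0.110 CPM per kb.

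How the summed level of the factor genes compared between the groups depended on the scaling. With TMM, the initiation genes summed to 5278 ± 262 CPM in nanoplastics hearts and 5050 ± 260 CPM in control hearts (SD, n = 4 and 3 mice). The elongation genes summed to 1432 ± 242 CPM in nanoplastics hearts and 1266 ± 120 CPM in control hearts. The groups overlapped in both sums on this scale. By library totals alone the initiation genes summed to 4865 ± 78.5 CPM in nanoplastics hearts and 5522 ± 133 CPM in control hearts, lower in every nanoplastics mouse. The elongation genes summed to 1316 ± 166 CPM in nanoplastics hearts and 1384 ± 104 CPM in control hearts, with an overlap. On that scale the median log2 change over all genes tested was -0.27, with 1740 of 8483 positive. It was -0.22 for the initiation genes, with 11 of 50 positive, and 0.08 for the elongation genes, with 6 of 11 positive.

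Of 61 factor genes tested in the whole heart, where the sections of a mouse are summed, 2 passed the test and both were lower in nanoplastics mice: Eef2 among the 11 elongation genes and Eif4ebp2 among the 50 initiation genes. Over all 8483 genes tested, 2.56% were called, 1.79% higher and 0.766% lower, so 2 of 61 is near the background. The median log2 change of the factor genes was 0.04, beside -0.03 over all genes tested. At an unadjusted p under 0.05, 11 factor genes were higher and 11 were lower, where 9.17% and 9.03% of all genes were, 18.2% together; the 22 are 36.1% of the factor genes tested. DESeq2's Wald test called 4 of 50 factor genes with an adjusted p, Eef1b2, Eif3c and Eif3k higher and Eef2 lower, beside 8.61% of the genes to which it gave an adjusted p. These p-values come from edgeR's quasi-likelihood test and were adjusted by Benjamini-Hochberg over all genes tested; a gene is called at an adjusted p under 0.05.

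**Figure D2:**
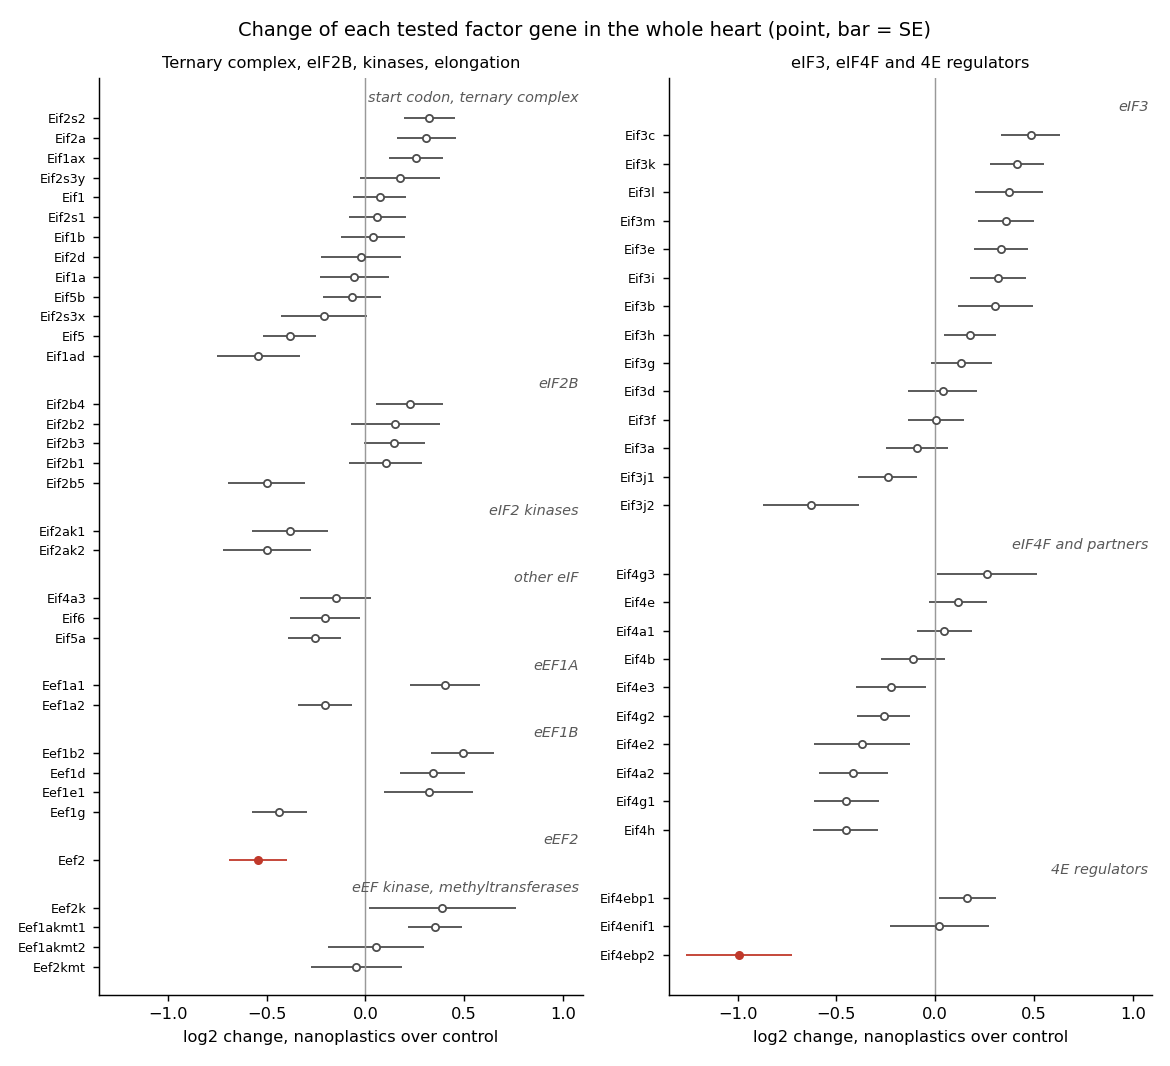
log2 change of each of the 61 tested factor genes, nanoplastics over control in the whole heart, grouped by role, with bars for the SE. The 2 filled red points, Eef2 at -0.54 and Eif4ebp2 at -0.99, are the genes that passed the test.

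Eef2 was the called gene among the elongation factors. It had 84.0, 117, 96.7 and 99.3 CPM in nanoplastics mice 1 to 4, against 156, 161 and 116 CPM in control mice 1 to 3. 1 nanoplastics mouse, at 117 CPM, lay just above the lowest control, at 116 CPM, so the groups met at their edges. The log2 change was -0.54 (SE 0.15, adjusted p = 0.0487 by edgeR). It was negative under each of the 18 alternatives run, from -0.78 to -0.44, and was called under 8 of them, but under none that left out a mouse, where adjusted p ran from 0.0567 to 0.261.

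The subunits of eEF1B, which recharges eEF1A with GTP, did not move as a unit. Eef1g, the anchoring subunit, had 133, 142, 116 and 114 CPM in nanoplastics mice, against 186, 182 and 143 CPM in control mice, and every nanoplastics mouse was below every control. Eef1b2, the catalytic subunit, had 332, 213, 226 and 233 CPM in nanoplastics mice, against 211, 168 and 155 CPM in control mice. There every nanoplastics mouse was above every control, by a small gap. How many of all genes tested separate the groups in this way was not counted. Separation of these genes and of those below is therefore description only. Neither passed: the log2 changes were -0.43 (SE 0.14, adjusted p = 0.0886) for Eef1g and 0.49 (SE 0.16, adjusted p = 0.0993) for Eef1b2 by edgeR. Eef1d, the second exchange subunit, and Eef1e1, a partner of tRNA synthetases, had log2 changes of 0.34 (adjusted p = 0.273) and 0.32 (adjusted p = 0.497).

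Within a library, a ratio of 2 genes does not depend on the scaling between libraries. The ratio of Eef1b2 to Eef1g per kilobase was 2.40, 1.44, 1.87 and 1.97 in nanoplastics mice, against 1.09, 0.890 and 1.05 in control mice. By library it was 1.47 to 2.41 in nanoplastics atria, 1.61 to 3.23 in their right ventricles and 1.40 to 2.20 in their left ventricles, while no control library was above 1.30. Their annotated lengths are close, 1939 nt for Eef1b2 and 1864 nt for Eef1g. This pair, and the ratio of Eef2 to Eef1a1, were chosen after their values were seen, so no test is given. Eef2 to Eef1a1 was 0.0672 to 0.142 in nanoplastics mice and 0.198 to 0.217 in control mice per kilobase, with an overlap only among the right ventricles. Here the annotated lengths differ, 3089 nt for Eef2 and 1794 nt for Eef1a1. The part of the length difference between the groups in this ratio was not tested.

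**Figure D3:**
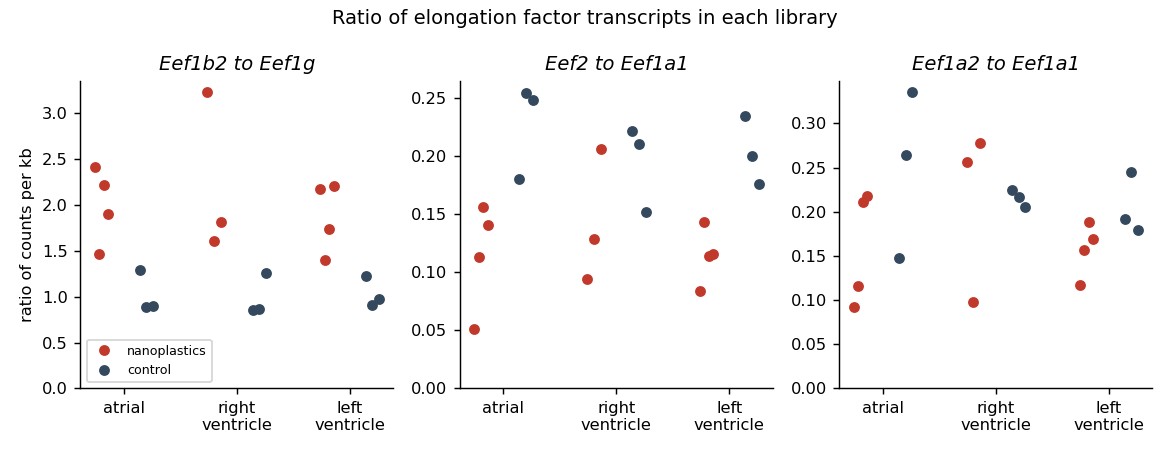
Ratio of counts per kilobase in each library by section, nanoplastics in red on the left and control in dark blue on the right. Eef1b2 to Eef1g ran from 1.40 to 3.23 in nanoplastics libraries and reached 1.30 in controls, and the other pairs overlap in at least 1 section.

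The forms of eEF1A were tracked as a share. Eef1a1 had 726, 545, 420 and 407 CPM in nanoplastics hearts, against 415, 435 and 339 CPM in control hearts, with nanoplastics mouse 1 the highest. Eef1a2, the muscle and nerve form, had 99.4, 82.9, 83.2 and 99.9 CPM in nanoplastics hearts, against 93.2, 120 and 102 CPM in control hearts, and the groups overlapped. Per kilobase, Eef1a2 made up 13.5 ± 3.12% of both forms in nanoplastics hearts and 18.7 ± 2.28% in control hearts (SD, n = 4 and 3). The mice overlapped, at 10.5 to 17.5% and 16.2 to 20.6%. By section the mean shares in nanoplastics and control libraries were 13.5% and 19.6% in the atria, 17.0% and 17.7% in the right ventricle. They were 13.6% and 17.0% in the left ventricle, and the libraries overlapped in each section. Neither gene passed, with log2 changes of 0.40 (adjusted p = 0.228) and -0.20 (adjusted p = 0.475). Without the atria of nanoplastics mouse 1, where Eef1a1 reached 1299 CPM, the log2 change of Eef1a1 was 0.22 (adjusted p = 0.42).

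Eukaryotic elongation factor mRNAs are the textbook TOP mRNAs, which begin at a C followed by a pyrimidine run. The start windows of Eef2, Eef1a1, Eef1a2, Eef1b2 and Eif4ebp2 are printed to show which annotated starts hold such a run. No window was found for Eef1g. Capitals mark the longest run of a C followed by at least 4 bases that are each C or T. Windows hold 5 bases before and 25 from the annotated start of RefSeq on build GRCm38.p6, gene strand, 5′ to 3′.
Eef2 (chr10:81176626-81176655, plus strand): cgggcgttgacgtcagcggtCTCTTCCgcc
Eef1a1 (chr9:78481700-78481729, minus strand): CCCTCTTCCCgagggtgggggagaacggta
Eef1a2 (chr2:181156991-181157020, minus strand): tctgcgttctcgctcactggttCTCTCCCT
Eef1b2 (chr1:63176826-63176855, plus strand): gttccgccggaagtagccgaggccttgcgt
Eif4ebp2 (chr10:61452645-61452674, minus strand): cgggacgaccgggcgagagcaggcgagttg
The run of Eef1a1 spans its annotated start, that of Eef2 begins at base 16, and Eef1b2 and Eif4ebp2 show no such run in this window. The windows of Eif2s3x and Eif2s3y, not printed, hold runs of 12 bases that begin at base -1 and base 2. Of 68 windows of the 53 members found in RefSeq, 38.2% held a run, beside 34.6% of all 32851 windows, counted on the gene strand only. A run that begins exactly at the annotated start was held by 2 of the 68 member windows and by 2.51% of all windows. The annotated start need not be the start used in the heart. A marked run therefore need not be the TOP tract of its mRNA. A window without a run does not show that the mRNA lacks a tract, and neither was tested. Of 8 members listed as TOP mRNAs, 1 was called, Eef2, and it was lower, beside 2.56% of all genes called and 0.766% called lower. Their median log2 change was 0.25 with 6 of 8 positive, beside -0.03 and 3948 of 8483 positive over all genes tested. With library totals alone it was 0.00 with 4 of 8 positive, beside -0.27 and 1740 of 8483.

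The start codon and ternary complex genes gave no call among 13 tested. Eif2s2, the beta subunit of eIF2, which carries the initiator tRNA, had 395, 426, 409 and 356 CPM in nanoplastics mice, against 333, 326 and 292 CPM in control mice, with no overlap between the groups. Its log2 change was 0.32 (SE 0.13, adjusted p = 0.179). Eif5, which triggers GTP hydrolysis on eIF2 at the start codon, had 102, 102, 124 and 104 CPM in nanoplastics mice, against 163, 135 and 124 CPM in control mice, and its log2 change was -0.38 (SE 0.14, adjusted p = 0.129). For Eif1, with the highest level, it was 0.07 (adjusted p = 0.832), and for Eif2s1, the alpha subunit on which the stress kinases act, 0.06 (adjusted p = 0.875). The gamma subunit is encoded on both sex chromosomes, and these males had more of the Y form: the ratio of Eif2s3y to Eif2s3x per kilobase was 7.98 ± 0.793 in nanoplastics hearts and 6.24 ± 1.58 in control hearts (SD, n = 4 and 3), with ranges that overlapped. Such near-identical pairs, and Eif3j1 with Eif3j2, Eif1a with Eif1ax, and Eif4a3 with its copy Eif4a3l2, are uncertain, because how the authors treated reads that fit both copies is not given.

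The exchange factor eIF2B and the eIF2 kinases gave no call. Eif2b5, the catalytic subunit that recharges eIF2, had 10.5, 12.5, 15.7 and 11.5 CPM in nanoplastics mice, against 15.9, 18.0 and 19.7 CPM in control mice, with a log2 change of -0.50 (adjusted p = 0.166). The other 4 subunits had positive log2 changes of 0.10 to 0.22, which were negative with library totals alone as scaling. Eif2ak1 and Eif2ak2 had log2 changes of -0.38 (adjusted p = 0.305) and -0.50 (adjusted p = 0.237). Eif2ak3 and Eif2ak4, at a mean of about 1 CPM, did not pass the filter on low counts. Of 17 genes listed for the integrated stress response, 9 were tested and none was called by edgeR. At an unadjusted p under 0.05, 1 was lower and 0 higher, beside 9.03% and 9.17% of all genes. That one was Atf5, a transcription factor of the response, at 3.13 ± 1.72 CPM in nanoplastics hearts and 8.79 ± 4.74 CPM in control hearts (SD, n = 4 and 3, log2 change -1.55, adjusted p = 0.054). The median log2 change of the 9 was -0.28 with 7 negative, beside -0.03 and 4535 of 8483 negative over all genes tested.

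The 14 eIF3 genes, whose proteins form the scaffold on the small subunit, had a median log2 change of 0.24, with 11 of 14 positive and none called. Eif3c had 168, 160, 149 and 178 CPM in nanoplastics mice, against 90.6, 118 and 144 CPM in control mice (log2 change 0.48, SE 0.15, adjusted p = 0.0831). Eif3k had 243, 230, 206 and 265 CPM in nanoplastics mice, against 160, 202 and 170 CPM in control mice (log2 change 0.41, SE 0.14, adjusted p = 0.104). Both genes were above every control in every nanoplastics mouse. At an unadjusted p under 0.05, 6 of 14 eIF3 genes were higher and 1, Eif3j2, was lower, beside 9.17% and 9.03% of all genes. The median was 0.27 with DESeq2 size factors. With library totals alone it was -0.01 with 7 of 14 positive, in a fit where the median of all genes tested lay at -0.27.

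The genes of the cap-binding eIF4F complex and its partners had negative log2 changes in 7 of 10, with a median of -0.24 and none called. Eif4g1, the scaffold that joins the cap complex to the ribosome, had 34.3, 30.1, 46.4 and 37.0 CPM in nanoplastics mice, against 44.0, 50.8 and 57.9 CPM in control mice, where 1 nanoplastics mouse exceeded the lowest control. Its log2 change was -0.45 (SE 0.16, adjusted p = 0.140), and that of Eif4h, a helper of the helicase eIF4A, was the same at -0.45 (SE 0.16, adjusted p = 0.138). Eif4a2 per kilobase stood at 1.98 ± 0.244 times its paralog Eif4a1 in nanoplastics hearts and 2.74 ± 0.345 times in control hearts (SD, n = 4 and 3), with no overlap between the mice. Eif4a2 had a log2 change of -0.41 (adjusted p = 0.214) and Eif4a1 of 0.05 (adjusted p = 0.907), and the cap-binding protein gene Eif4e of 0.12 (adjusted p = 0.736). The median of this group was -0.22 with DESeq2 size factors and -0.17 with the length trend removed, beside -0.002 and 0.01 over all genes tested. With library totals alone it was -0.49, in a fit where the median of all genes tested lay at -0.27.

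Eif4ebp2, a repressor of eIF4E, was the other called gene. It had 3.01, 6.02, 3.65 and 5.45 CPM in nanoplastics mice, against 9.89, 9.61 and 7.23 CPM in control mice, and the groups did not overlap. It fell, with a log2 change of -0.99 (SE 0.27, adjusted p = 0.0496 by edgeR). These are few counts: the nanoplastics libraries held 1 to 14 counts each. Of the 16 alternatives that gave an adjusted p it was called in 4, and it was negative in all 16, from -1.23 to -0.84. Leaving out any mouse ended the call, with adjusted p from 0.0596 to 0.191. Its paralog Eif4ebp1, at 148 ± 27.9 CPM in nanoplastics hearts and 132 ± 9.36 CPM in control hearts (SD, n = 4 and 3), had a log2 change of 0.16 (adjusted p = 0.612) and did not pass.

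**Figure D4:**
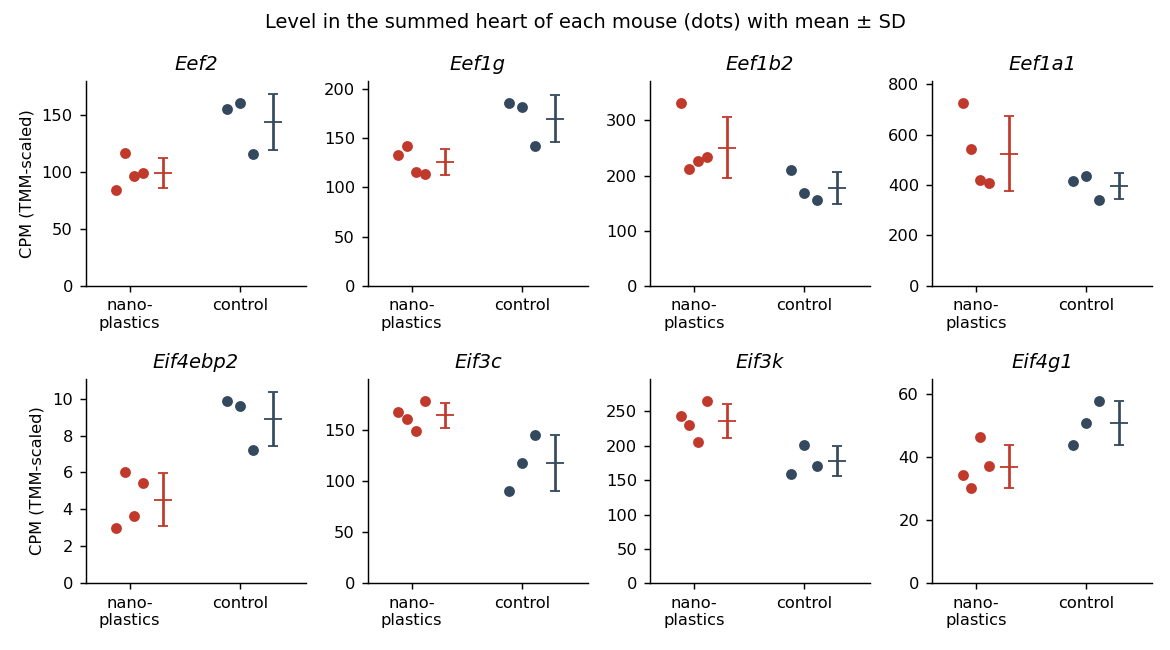
TMM-scaled CPM of 8 factor genes in the summed heart of each mouse, nanoplastics on the left and control on the right, with mean ± SD beside the dots. Eef1g, Eef1b2, Eif4ebp2, Eif3c and Eif3k show no overlap between groups, and the Eef2 groups meet at 117 and 116 CPM. The share of all genes tested without overlap was not counted.

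Other genes of the pathway were read from lists. Of 13 tested genes for mTORC1 and MNK signalling, 1 was called, beside 2.56% of all genes. The median log2 change of this list was -0.41, with 10 of 13 negative under each of the 3 scalings. Of all 8483 genes tested, 4535 were negative with TMM and 6743 with library totals alone. The called gene, Akt2, a kinase upstream of mTORC1, fell to 14.4 ± 1.22 CPM in nanoplastics hearts, against 24.6 ± 3.99 CPM in control hearts (log2 change -0.79, SE 0.18, adjusted p = 0.0308 by edgeR). Of 11 mitochondrial translation factors, 1 was called, with a median of -0.11: Tsfm, the exchange factor of mitochondrial elongation, fell to 24.7 ± 3.83 CPM in nanoplastics hearts, against 39.7 ± 2.06 CPM in control hearts (log2 change -0.70, SE 0.16, adjusted p = 0.031 by edgeR). No gene was called among 10 for termination and recycling, 8 for poly(A) binding and 5 for hypusine and diphthamide synthesis. Of 76 cytosolic ribosomal protein genes, 41 rose and none fell, beside 1.79% higher and 0.766% lower over all genes. Their median log2 change was 0.54, against 0.29 with library totals alone and 0.36 with the length trend removed, where 71 of 76 were positive. At an unadjusted p under 0.05, 66 of them were higher and 0 lower, beside 9.17% and 9.03% of all genes.

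By section, no factor gene passed the test: 0 of 57 in the atria, 0 of 56 in the right ventricle and 0 of 56 in the left ventricle. Over all genes, 0%, 1.31% and 0.0551% were called there. At an unadjusted p under 0.05, 10 of 57 factor genes were past it in the atria, 12 of 56 in the right ventricle and 6 of 56 in the left ventricle, beside 12.3%, 14.6% and 14.1% of all genes. DESeq2's Wald test called 2 of 25, 1 of 28 and 3 of 24 factor genes with an adjusted p, beside 12.2%, 12.7% and 14.5% of the genes to which it gave an adjusted p. The sections of a mouse are not independent samples of the treatment, and the whole-heart values hold the same counts.

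In both ventricles the smallest p belonged to an elongation gene. In the left ventricle Eef2 had 69.3, 117, 70.8 and 93.9 CPM in nanoplastics mice, against 178, 154 and 112 CPM in control mice, where 1 nanoplastics mouse lay above the lowest control. Its log2 change was -0.82 (SE 0.20, adjusted p = 0.0865 by edgeR). Eef1g followed at -0.55 (SE 0.17, adjusted p = 0.145). In the right ventricle Eef1b2 had 347, 204 and 290 CPM in nanoplastics mice, against 175, 179 and 165 CPM in control mice, and its log2 change was 0.66 (SE 0.20, adjusted p = 0.0848). Depth differed between the groups in that section, with 438053 to 813585 counts in nanoplastics and 1333133 to 2042568 counts in control libraries. The part of depth in these values was not tested. Markers of other cell types also differed between the groups in the right ventricle. On the same TMM scale, smooth muscle markers, 5 genes, summed to 137 to 341 CPM in nanoplastics right ventricles and 357 to 423 CPM in control ones, and the 8 atrial muscle markers to 419 to 551 CPM in nanoplastics and 131 to 277 CPM in control ones, with no overlap by library totals either. Endothelial markers, 8 genes, overlapped on this scale, at 981 to 1327 CPM in nanoplastics and 1104 to 1299 CPM in control ones, but not by library totals. Cardiac muscle and fibroblast markers overlapped by library totals but not on the TMM scale, where they were higher in nanoplastics right ventricles. For fibroblast markers the gap was narrow, 1056 against 1055 CPM. The same held in the left ventricle. Cardiac muscle markers there summed to 71322 to 86089 CPM in nanoplastics and 58018 to 66772 CPM in control libraries. Fibroblast markers summed to 1157 to 1689 CPM and 1006 to 1122 CPM. At least 4 of the 5 smooth muscle markers had a count in each right ventricular library, and Bmp10 was at 0 in all but 1 of them. The part of these markers in the right and left ventricular values was not tested. In the atria, the smallest p belonged to Eif4ebp2 (-1.34, SE 0.44, adjusted p = 0.305) and then Eef2 (-0.53, SE 0.18, adjusted p = 0.305).

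**Figure D5:**
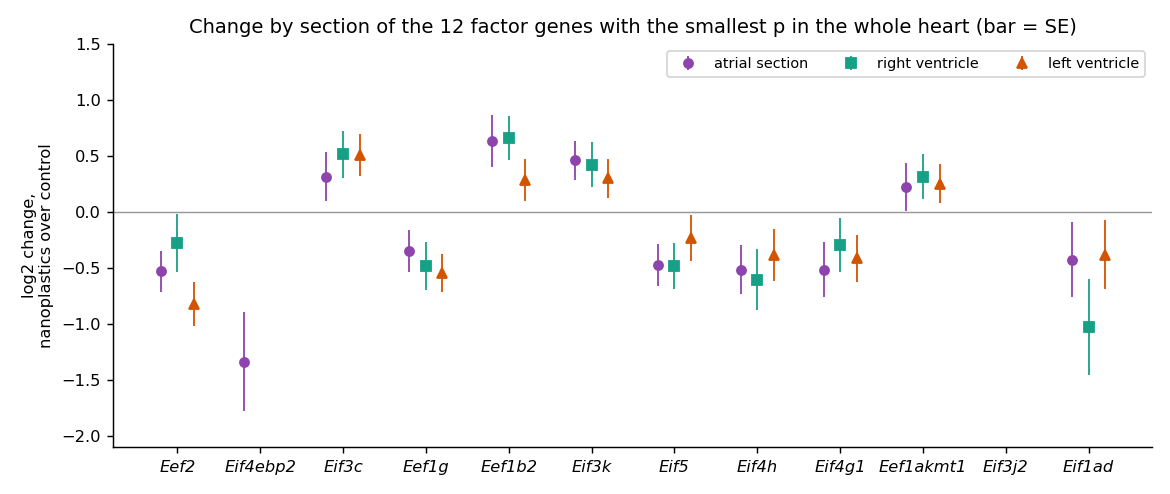
log2 change, nanoplastics over control, in each section for the 12 factor genes with the smallest p in the whole heart, with bars for the SE. None passed the test in a section. Eif4ebp2 was tested only in the atria and Eif3j2 in no section.

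Whether the nanoplastics effect differed between sections was tested directly. None of 59 factor genes passed in either interaction, where 0.0154% and 0% of all genes did. At an unadjusted p under 0.05, 4 of 59 and 2 of 59 factor genes were past it, beside 5.11% and 2.86% of all genes. DESeq2's Wald test called 0 of them, beside 0.00477% of all genes in each interaction. For the atria against the left ventricle, the smallest p belonged to Eif3a, the largest eIF3 subunit (-0.64, SE 0.22, adjusted p = 0.933), Eif5b, which joins the ribosomal subunits (-0.53), and Eif1b (0.59). These 3 were at 55.4, 67.8 and 139 CPM in the atria of nanoplastics mouse 1, far from that group's other atria, and without that library the log2 differences were -0.48, -0.41 and 0.30. For the right against the left ventricle, Eef2 had a difference of 0.61 (SE 0.28, unadjusted p = 0.0351, adjusted p = 1 by edgeR).

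Between sections, with both treatments and the mouse as a block, no factor gene passed: 0 of 55 for atria against left ventricle, 0 of 55 for atria against right ventricle and 0 of 56 for right against left ventricle. Of all genes, 0.155%, 0.115% and 0% were called, and 7, 4 and 2 factor genes were past an unadjusted p of 0.05, beside 12.6%, 6.54% and 4.94% of all genes. DESeq2's Wald test called 0 factor genes in each, beside 0.166%, 0.0355% and 0% of all genes with an adjusted p. Eif3d had 35.2 ± 8.38 CPM in the atria and 24.1 ± 4.10 CPM in the left ventricle (SD, n = 7 each, log2 difference 0.52, SE 0.17, adjusted p = 0.205). Eif4e, the cap-binding protein, had 163 ± 34.7 CPM in the atria and 202 ± 28.1 CPM in the left ventricle (log2 difference -0.29, SE 0.10, adjusted p = 0.241). Eif4g1 had 50.4 ± 9.62 CPM in the right ventricle and 37.1 ± 7.34 CPM in the left ventricle (SD, n = 6 and 7, log2 difference 0.39, SE 0.14, adjusted p = 0.785). For Eef1a1 the atria ran from 353 to 1299 CPM with a median of 478 CPM, against 359 to 478 CPM with a median of 447 CPM in the left ventricle.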

How the data were processed

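The authors deposited 1 table of raw counts, with 20960 gene symbols in rows and 21 libraries in columns. RNA was captured on oligo-dT beads and barcoded at the 5′ end by template switching, with paired reads of 150 bp, per the labels' protocols. STAR, an aligner, is named without version per the submitters' processing notes. The build, the annotation, strand handling and any counting of molecular identifiers are steps not given in the sources used here.

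Under R 4.3.3, tests ran in edgeR 4.0.16, with DESeq2 1.42.0 and limma 3.58.1 for alternatives. Libraries under 100000 counts were left out, which removed 1. Genes passed filterByExpr, TMM (trimmed mean of M-values) scaled the libraries, and edgeR's robust quasi-likelihood test was used, adjusted over all genes tested by Benjamini-Hochberg and called under 0.05. Comparisons between sections and interactions had the mouse as a block. The main fits of nanoplastics against control, in the whole heart or within a section, had no block. Transcript lengths came from GENCODE M21 and start windows from RefSeq GRCm38.p6. The steps were tested on simulated counts.

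Members, roles and lists were chosen with earlier results of these data known. Named genes were those called, the 6 smallest p of a comparison, fixed regulators and the extremes of level. No pair of libraries was identical. Nothing in the labels says whether p-values measure more than the spread between these mice.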

Additional observations from a re-analysis of the deposited data

Results flagged for a closer look

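Of 141 groups of 4 nanoplastics samples, 10 held a value that stood apart by Dixon's test, where chance gives about 1 in 20 groups. The summed hearts hold the same counts as the sections, so the groups are not independent. In the atria of nanoplastics mouse 1, Eif1b was high at 139 CPM, against 54.4 to 66.9 CPM in the others of the group, and Eif3a and Eif5b were low at 55.4 and 67.8 CPM, against at least 116 and 135 CPM. That library also held the highest level of atrial muscle markers, whose part in these values was not tested. In the atria of mouse 4, Eef1akmt2 was low at 7.498 CPM, against 14.8 to 16.1 CPM. In the left ventricle, mouse 4 was low for Eif2s1 at 64.9 CPM, against 94.1 to 96.6 CPM, and high for Eif3k at 309.5 CPM, against 193 to 212 CPM. Eef1a1 was low in the left ventricle of mouse 3 at 359 CPM, against 471 to 478 CPM. In the summed hearts, mouse 3 was high for Eif5 at 124 CPM, against 102 to 104 CPM, and low for Eif2ak4 at 0.365 CPM, against 1.39 to 1.51 CPM. Eif2ak4 was also flagged in the left ventricle of mouse 1 at 0.708 CPM, which is 1 count, with 0 in the others.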

How the results depend on the processing

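Counts of factor genes under the alternatives are given here without the share of all genes called under each. They cannot tell an excess of factor genes from the background. Such shares were given above only for the main edgeR test and DESeq2's Wald test. In the whole heart, 2 factor genes were called. The count was 0 with DESeq2 size factors, 14 with library totals alone (all lower), 4 with DESeq2's Wald test (Eef1b2, Eif3c and Eif3k higher, Eef2 lower), 0 with the length trend removed, 0 with an atrial muscle covariate, 9 with a section term and the mouse as a random effect (5 higher, 4 lower) and 1 without the atria of nanoplastics mouse 1 (Eef2). Leaving out 1 mouse gave 0 to 1, with Eef1b2 called without control mouse 1 and neither Eef2 nor Eif4ebp2 in any. Library totals alone moved the median of all genes to -0.27, and the causes of the other moves were not tested. In each section edgeR called 0. In the atria, DESeq2's Wald test called 2. In the right ventricle it called 1, and library totals alone 3; leaving out 1 mouse gave 0 to 4, with 4 without nanoplastics mouse 3. In the left ventricle, library totals alone called 2, DESeq2's Wald test 3, and no filter on low counts 1; leaving out 1 mouse gave 0 to 1, with 1 without control mouse 3. With the replicate number as a block the calls were 4 in the whole heart (Eef1b2, Eif3m and Eef1a1 higher, Eef2 lower), 2 in the atria and 0 in both ventricles; same-numbered mice share only a number, with correlations of their deviations of -0.0045, 0.117 and 0.025 in the whole heart. No alternative gave a call between sections or for the interactions, those without the atria of nanoplastics mouse 1 included, which were chosen for these comparisons after seeing the data. No called direction reversed.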
